A study of Rattus norvegicus with 9 samples.

Results

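Genes that specify and mark the oligodendrocyte lineage were compared across 3 rat tissues, namely blood, the hippocampus (HC) and the prefrontal cortex (PFC). The 9 genes on the list are Olig1, Olig2, Sox10, Nkx2-2, Pdgfra, Cspg4, Gpr17, Gpr37 and Enpp2, and each was taken from the arrays by its annotated gene symbol. A probe set with the symbol was found for 7 of the 9, with 1 probe set per gene, among 29214 probe sets with values. Olig2 and Nkx2-2 were not analysed here. Total RNA came from blood, HC and PFC of untreated male Wistar rats, numbered 2, 5 and 7, and was hybridized to 9 whole-transcript arrays, 1 per tissue and rat. Each number stands for 1 animal that gave all 3 tissues. Blood was collected into an RNA stabilizing tube, and HC and PFC were punched from frozen sections. Values are RMA (robust multi-array average) summaries on the log2 scale, so a difference of 1 is a doubling. The sample labels give no age, and the study describes animals some weeks old.

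Oligodendrocytes, the cells that wrap axons in myelin, arise from precursor cells that keep dividing and differentiating in the grown brain. Precursors are recognized by the growth factor receptor PDGFR alpha and the proteoglycan NG2, the products of Pdgfra and Cspg4, and the whole lineage by the transcription factors Olig1, Olig2 and Sox10. On the way to the myelinating cell, the receptor Gpr17 appears for a time, whereas Gpr37 and the secreted enzyme Enpp2 (autotaxin) accompany maturation. Blood holds no cells of this lineage. Pericytes also carry NG2, fibroblasts carry PDGFR alpha, and the choroid plexus also makes autotaxin.

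Promoter windows (RefSeq, build GRCr8), which run from 250 bases before to 50 after the annotated start of a gene, were found for 6 of the 9 genes. Olig1, Sox10 and Enpp2 had no entry. Those of Gpr37 and Pdgfra, which were far higher in brain than in blood, and of Cspg4, which differed little, are printed as an example of each pattern. Capitals mark the E-box CANNTG (N is any base), the motif bound by basic helix-loop-helix factors, the class to which Olig1 belongs.
Gpr37, chr4:55126371-55126670, minus strand: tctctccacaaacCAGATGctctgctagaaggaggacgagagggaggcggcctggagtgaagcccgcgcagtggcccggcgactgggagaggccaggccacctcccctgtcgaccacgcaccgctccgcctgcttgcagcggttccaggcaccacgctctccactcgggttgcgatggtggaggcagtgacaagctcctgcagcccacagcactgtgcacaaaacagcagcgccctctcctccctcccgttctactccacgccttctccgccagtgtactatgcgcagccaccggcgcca
Pdgfra, chr14:33408467-33408766, minus strand: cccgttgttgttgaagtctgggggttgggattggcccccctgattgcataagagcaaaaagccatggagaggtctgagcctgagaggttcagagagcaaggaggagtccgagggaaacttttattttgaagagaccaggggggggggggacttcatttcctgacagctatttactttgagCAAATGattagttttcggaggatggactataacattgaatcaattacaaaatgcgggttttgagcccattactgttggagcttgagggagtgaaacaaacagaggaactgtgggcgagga
Cspg4, chr8:66160692-66160991, plus strand: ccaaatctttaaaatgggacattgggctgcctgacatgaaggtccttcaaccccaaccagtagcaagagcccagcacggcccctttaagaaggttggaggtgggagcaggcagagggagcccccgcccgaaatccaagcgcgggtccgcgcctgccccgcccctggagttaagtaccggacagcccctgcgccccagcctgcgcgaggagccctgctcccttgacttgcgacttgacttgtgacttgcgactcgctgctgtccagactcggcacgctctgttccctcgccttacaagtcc
The Gpr37 and Pdgfra windows each hold 1 E-box, and those of Cspg4, Gpr17, Olig2 and Nkx2-2 hold none, whereas 72.1% of all 33469 windows hold at least 1. The letters AACAAT, a core recognized by Sox factors, were in none of the 6 windows on either strand and in 11.7% of all windows. The windows of Gpr37 and Cspg4 are rich in CG dinucleotides (21 and 18) and that of Pdgfra is not (5), against a median of 7 over all windows.

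Markers were read against the labels. All 10 neuronal genes tested were higher in HC and in PFC than in blood, all 8 erythroid genes were lower, and 4 of 5 genes of hippocampal fields were higher in HC than in PFC. For PFC the check was weak, since only 2 of 8 listed genes of neocortical layers were matched to a probe set by symbol. Neither was called between the regions (Fezf2 -0.41, Rgs12 0.17), and in rat 2 their mean was higher in HC (8.12) than in PFC (7.88). Blood arrays were less alike (Spearman's rho between arrays 0.957 to 0.968, across probe sets) than those of HC or PFC (0.995 to 0.996). A single linear model over all 9 arrays therefore carries the spread of blood into the comparison of HC with PFC, and a fit of the 6 brain arrays alone is given beside it.

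Of the 7 genes, 5 (Olig1, Pdgfra, Gpr17, Gpr37 and Enpp2) were several times higher in both brain regions than in blood, and Sox10 and Cspg4 were not. With a mean above 6.2, the study's cut-off, taken as presence, all 7 genes were present in both brain regions and only Sox10 in blood. The detection p that the study also required was not applied. Of all 29214 probe sets, 16884 were above 6.2 in at least 1 tissue, and the share in each tissue was not counted. In the model over all probe sets (limma, Benjamini-Hochberg adjustment over 29214 probe sets, called at an adjusted p under 0.05), 6 of the 7 were higher in HC than in blood, against 29.0% of all probe sets, although the sign of Cspg4 turned when arrays were scaled on housekeeping genes. In PFC 5 of the 7 were higher, against 28.7% of all. For the same 6 genes the lowest HC array lay above the highest blood array, as for 29.7% of all probe sets, and for the same 5 the lowest PFC array did, as for 29.1%. Fitted only on probe sets above 6.2 in at least 1 tissue, to which all 7 belong, 6 of the 7 were called higher in each region, Cspg4 now among them in PFC, against 47.6% of those probe sets in HC and 47.3% in PFC. In such pieces of tissue, fewer cells of a type and less RNA per cell cannot be told apart.

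**Figure D1:**
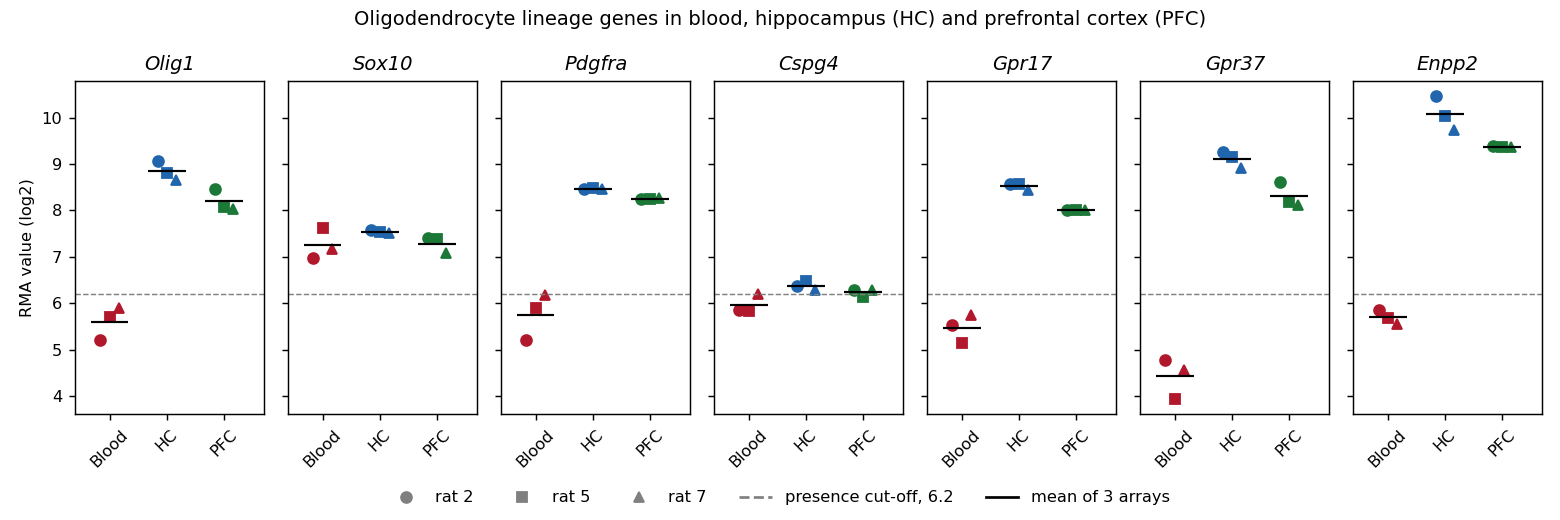
RMA value (log2) of the 7 genes in each of the 9 arrays. Symbols stand for rats, colours for tissues, the short lines for means of 3 arrays and the dashed line for the presence cut-off of 6.2. In blood, only Sox10 has a mean above the cut-off, and its blood values of 6.98 to 7.62 overlap those of HC and PFC. Heights of different genes are not comparable, since probe sets differ in brightness.

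Olig1, a transcription factor of precursors and of oligodendrocytes, stood at 5.21, 5.70 and 5.89 in the blood of rats 2, 5 and 7, at 9.06, 8.81 and 8.65 in HC and at 8.46, 8.08 and 8.04 in PFC. The 3 tissues did not overlap, and HC came first, PFC second and blood last. HC exceeded blood by 3.24 ± 0.192 (log2, with the standard error, 3 arrays in each tissue, limma, adjusted p = 2.68e-07), which is 9.46-fold, and PFC exceeded it by 2.60 ± 0.192 (adjusted p = 1.32e-06), or 6.04-fold.

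Sox10, which switches on myelin genes and is needed along the whole lineage, behaved differently. It stood at 6.98, 7.62 and 7.17 in blood, at 7.57, 7.53 and 7.51 in HC and at 7.40, 7.38 and 7.08 in PFC. The blood array of rat 5 was above every brain array, so blood overlapped both regions. HC differed from blood by 0.28 (95% confidence interval -0.08 to 0.65, adjusted p = 0.139) and PFC by 0.03 (-0.33 to 0.40, adjusted p = 0.867). The sign depended on scaling: with arrays quantile normalized again the differences were -0.12 and -0.35 (adjusted p = 0.616 and 0.158). Scaled on 8 housekeeping genes, which moved the median of all probe sets by -1.24 in HC minus blood and by -1.28 in PFC minus blood, they were -0.96 and -1.24 (adjusted p = 0.00108 and 0.000181). Before scaling, all 8 housekeeping genes were themselves called higher in HC and in PFC than in blood (medians 1.12 and 1.21), against 29.0% and 28.7% of all probe sets. This scaling therefore lowers every difference from blood. Without the blood array of rat 5, HC exceeded blood by 0.47 (adjusted p = 0.00668).

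Pdgfra, the receptor through which platelet-derived growth factor keeps precursors dividing, stood at 5.21, 5.89 and 6.17 in blood, at 8.46, 8.48 and 8.47 in HC and at 8.24, 8.24 and 8.27 in PFC. The brain values were tightly grouped, within 0.03 in each region, and far from blood. HC exceeded blood by 2.71 ± 0.202 (adjusted p = 1.41e-06) and PFC by 2.49 ± 0.202 (adjusted p = 2.58e-06). Cspg4, which encodes the NG2 proteoglycan of the precursor surface, stood at 5.86, 5.83 and 6.19 in blood, at 6.37, 6.48 and 6.28 in HC and at 6.28, 6.14 and 6.28 in PFC. HC lay just above blood and PFC overlapped it, and all 9 values sat close to the presence cut-off. The difference was 0.42 ± 0.118 for HC (adjusted p = 0.00914) and 0.28 ± 0.118 for PFC (95% interval 0.01 to 0.54, adjusted p = 0.0552), and scaling on housekeeping genes turned them to -0.82 and -0.999 (adjusted p = 5.5e-05 and 1.3e-05). The HC call was lost without rat 2 (0.37, adjusted p = 0.0903) and without rat 5 (0.31, adjusted p = 0.094). In PFC a call of Cspg4 was gained with the filter at 6.2 (adjusted p = 0.0431), with arrays centred on their medians (0.0235) or quantile normalized again (0.0489), with 1 probe set per gene (0.0465), without rat 7 (0.0326) and without the blood array of rat 7 (0.00539).

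Gpr17, a receptor of precursors about to differentiate, stood at 5.54, 5.14 and 5.75 in blood, at 8.56, 8.57 and 8.44 in HC and at 8.00 in each of the 3 PFC arrays. The 3 tissues did not overlap. HC exceeded blood by 3.04 ± 0.142 (adjusted p = 5.01e-08) and PFC by 2.52 ± 0.142 (adjusted p = 1.88e-07). The PFC values of Gpr17 were the same number in all 3 arrays, as were those of 478 probe sets in PFC, so its SD of 0 there is no measure of the spread between animals.

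Gpr37, a receptor found in myelinating cells, stood at 4.78, 3.94 and 4.57 in blood, at 9.25, 9.15 and 8.92 in HC and at 8.62, 8.19 and 8.11 in PFC. HC exceeded blood by 4.68 ± 0.219 (adjusted p = 4.97e-08) and PFC by 3.88 ± 0.219 (adjusted p = 1.87e-07). Its blood mean of 4.43 was below 5.53, the 95th percentile in blood of 1298 probe sets for chemosensory receptors (olfactory, vomeronasal, taste), which blood should lack. Against that level the differences are at least 3.57 in HC and 2.77 in PFC, and those of Gpr17, whose blood mean was 5.48, are 2.99 and 2.47. The blood means of the other 5 genes lay above that level, although Olig1 and Pdgfra were below it in rat 2 (both 5.21). The same percentile was lower in HC (4.88) and in PFC (4.85), and each tissue is held to its own level wherever the chemosensory level is used.

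Enpp2 encodes autotaxin, the secreted enzyme that makes lysophosphatidic acid. It stood at 5.85, 5.68 and 5.56 in blood, at 10.46, 10.03 and 9.74 in HC and at 9.38, 9.37 and 9.36 in PFC. HC was highest and its 3 arrays were spread far more (SD 0.36) than those of PFC (SD 0.013). The PFC values were nearly the same number, so their SD is a weak measure of the spread between animals. HC exceeded blood by 4.38 ± 0.165 (adjusted p = 1.21e-08), or 20.8-fold, and PFC by 3.67 ± 0.165 (adjusted p = 3.74e-08), or 12.8-fold. Scaled on housekeeping genes, the 5 genes that were higher in both regions remained higher, by 1.47 to 3.44 in HC and by 1.22 to 2.60 in PFC, without regard to that level.

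**Figure D2:**
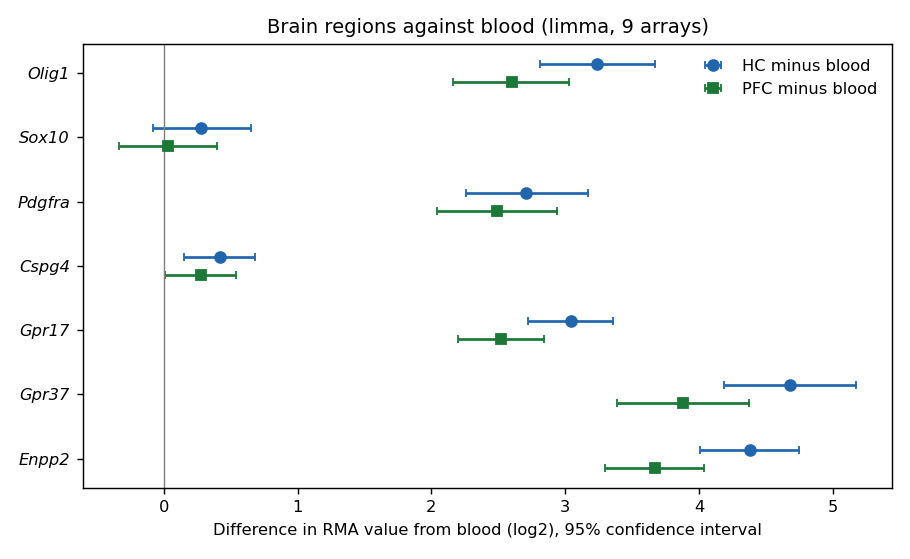
Difference of HC (circles) and PFC (squares) from blood in RMA value (log2), from limma over 9 arrays, with 95% confidence intervals. Enpp2 lies at 4.38 in HC and 3.67 in PFC. The measured Gpr37 values of 4.68 and 3.88 rest on a blood mean below the level of chemosensory receptors, against which they are at least 3.57 and 2.77, while both Sox10 intervals include 0 and the Cspg4 estimates are 0.42 and 0.28. Scaling on housekeeping genes turned the Sox10 and Cspg4 estimates below 0.

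Other genes of the lineage were set against blood in the same way, by lists. Over all probe sets 29.0% were higher and 46.5% lower in HC, and 28.7% and 47.0% in PFC, and nothing particular to a list is read from its count. All 16 myelin genes were higher in HC and 15 of the 16 in PFC (median differences 3.51 and 2.83, or 3.39 and 2.61 with means raised to the chemosensory level, which 7 of the 16 did not reach in blood), among them Mbp, a major myelin protein, by 4.86 and 4.06 and Ermn, a cytoskeletal protein of myelinating cells that was below that level in blood, by at least 4.27 and 3.38. Of 13 other precursor genes 10 were higher in HC and 9 in PFC and none was lower, with the proteoglycan gene Bcan at 4.19 and 3.62 and Ptprz1, below that level in blood, at 4.38 and 3.76 or more. Of 10 other lineage transcription factors 7 were higher and 2 lower in each region. Genes of committed precursors were mixed, with 8 of 13 higher and 3 lower in HC and 7 higher and 4 lower in PFC. Of 8 genes that hold back differentiation, 5 were higher in each region, and 1 was lower in PFC.

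HC held more of these transcripts than PFC in every mean, but the model over 9 arrays called only Enpp2. The differences of HC minus PFC were 0.80 for Gpr37, 0.71 for Enpp2, 0.65 for Olig1, 0.52 for Gpr17, 0.25 for Sox10, 0.22 for Pdgfra and 0.14 for Cspg4. Their median was 0.52, against 0.00 over all probe sets. HC was higher in each of the 3 rats for 6 of the 7 genes, which holds for 22.2% of all probe sets, and for the same 6 the lowest HC array was above the highest PFC array, which holds for 14.9%. Cspg4 is the exception, at 6.28 in both regions of rat 7.

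In the model over 9 arrays, Enpp2 was higher in HC by 0.71 ± 0.165, or 1.63-fold (limma, n = 3 arrays per tissue, adjusted p = 0.0443), and 2.11% of all probe sets were called higher in HC. Gpr37 (0.80 ± 0.219, adjusted p = 0.0856), Gpr17 (0.52 ± 0.142, adjusted p = 0.0872) and Olig1 (0.65 ± 0.192, adjusted p = 0.121) missed the threshold. So did Sox10 (adjusted p = 0.732), Cspg4 (adjusted p = 0.867) and Pdgfra (adjusted p = 0.913), whose 95% intervals were -0.12 to 0.62, -0.12 to 0.41 and -0.23 to 0.67. With the rat as a block in that model, Gpr37 passed too (adjusted p = 0.0486).

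Fitted on the 6 brain arrays alone, 5 of the 7 were higher in HC, against 6.11% of all probe sets. These were Gpr17 (adjusted p = 0.00176), Gpr37 (adjusted p = 0.019), Pdgfra (adjusted p = 0.022), Olig1 (adjusted p = 0.0361) and Enpp2 (adjusted p = 0.0426). With the rat as a block as well, a fit chosen after seeing the data, Pdgfra missed the threshold (adjusted p = 0.0716) and the other 4 kept their calls. The standard error of Olig1 in that fit was 0.0583, against 0.192 over 9 arrays, and its difference in rats 2, 5 and 7 was 0.60, 0.73 and 0.61. The SD of Pdgfra was 0.00731 in HC and 0.0183 in PFC, and that of Gpr17 was 0.0748 and 0. Values were the same number in all 3 arrays for 542 probe sets in HC and 478 in PFC. Spreads this small are a weak measure of the spread between animals. The calls of Pdgfra and Gpr17 in the 6 brain arrays rest partly on them.

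Within a region, rat 2 had the highest value of Olig1, Sox10, Gpr37 and Enpp2 in both HC and PFC. The mean of the 7 genes was 8.53, 8.44 and 8.29 in HC of rats 2, 5 and 7 and 8.06, 7.91 and 7.88 in PFC, so each HC array was above each PFC array. With 1 array per rat and region, a difference between animals and one between punches cannot be told apart.

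**Figure D3:**
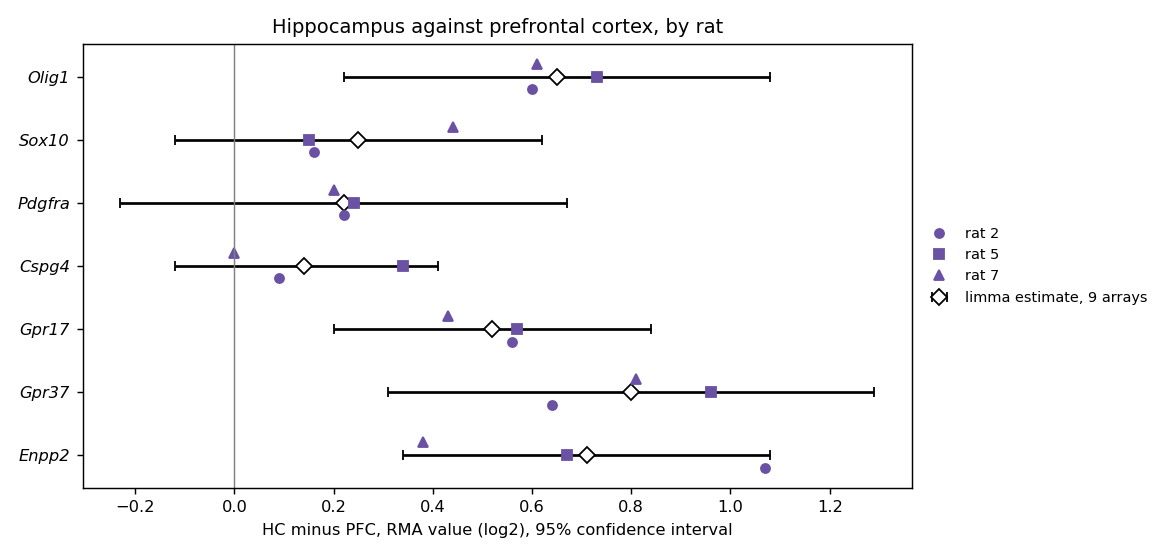
HC minus PFC in RMA value (log2) for each rat (filled symbols), with the limma estimate over 9 arrays and its 95% confidence interval (open diamonds). All rats lie above 0 except rat 7 for Cspg4, at 0.00, and the Enpp2 values run from 0.38 in rat 7 to 1.07 in rat 2.

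The Enpp2 difference was uneven between rats, at 1.07 in rat 2, 0.67 in rat 5 and 0.38 in rat 7. Its call was lost without any 1 rat (adjusted p = 0.101 to 0.344) and without any single brain array except HC of rat 7, and without HC of rat 2 the difference was 0.52 (adjusted p = 0.115). Ttr, the transthyretin gene that marks the choroid plexus, stood at 11.20, 10.09 and 9.96 in HC of rats 2, 5 and 7 and at 4.45, 4.39 and 4.20 in PFC. The mean level of 12 choroid plexus genes was 5.99, 5.48 and 5.50 in HC and 4.65 to 4.74 in PFC. Over 9 arrays 5 of the 12 were called higher in HC and none lower, against 2.11% and 2.33% of all probe sets. In the 6 brain arrays 5 were higher and none lower, against 6.11% and 6.36%. Ttr and Calml4 were the widest, at 6.07 and 1.54 (limma over 9 arrays, adjusted p = 1.01e-05 and 0.000621). With means raised to the chemosensory level they were 5.57 and 0.92. Ttr was the only 1 of the 12 above 6.2 in HC. Of the 12, 2 in HC and 7 in PFC were not above the chemosensory level of that region (4.88 and 4.85). The mean level of 16 myelin genes was 9.43, 9.38 and 9.10 in HC and 8.80, 8.50 and 8.34 in PFC. HC of rat 2 thus had the highest value for Enpp2, for Ttr and for both lists, and the part of choroid plexus or of myelinating cells in the Enpp2 difference was not tested.

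**Figure D4:**
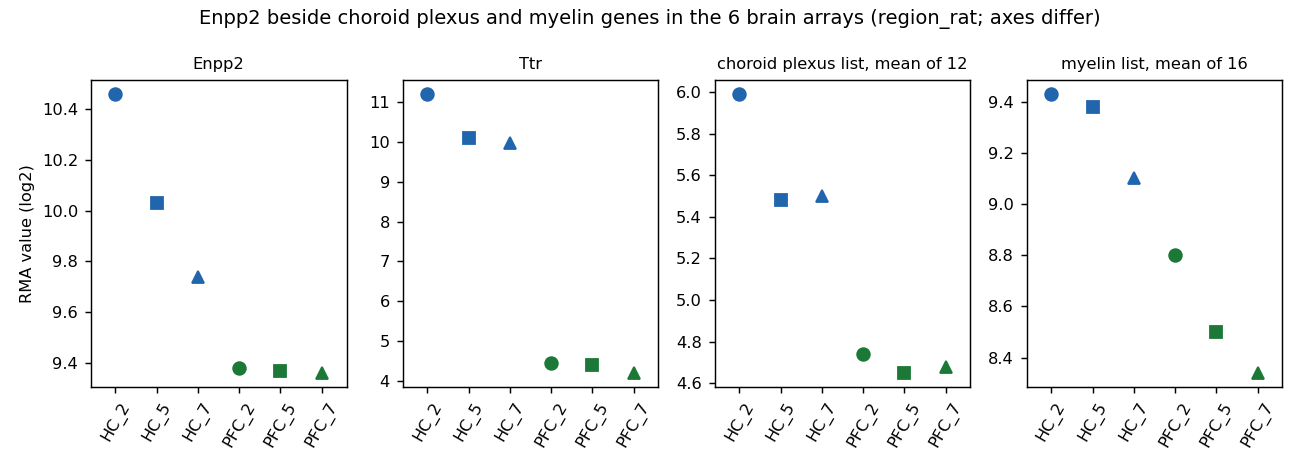
RMA value (log2) of Enpp2 and Ttr, and the mean RMA value of 12 choroid plexus and 16 myelin genes, in the 6 brain arrays, named by region and rat. Each panel has its own axis. HC of rat 2 is highest in all 4 panels, with 10.46 for Enpp2 and 11.20 for Ttr.

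Further genes of the lineage were counted from lists. Over all probe sets 2.11% were called higher and 2.33% lower in HC over 9 arrays, and 6.11% and 6.36% in the 6 brain arrays. These shares stand beside every list count between the regions from here on, and nothing particular to a list is read from its count. Myelin genes were higher in HC by a median of 0.85, with 7 of 16 called in the model over 9 arrays and 10 of 16 in the 6 brain arrays. The widest were Mog, a protein of the outer myelin surface, and Fa2h, which hydroxylates fatty acids of myelin lipids, both at 0.97 (adjusted p = 0.0181 and 0.0463). Of 13 genes of committed precursors and new oligodendrocytes, 3 were higher in HC over 9 arrays and 7 in the 6 brain arrays, none lower in either fit (median 0.34). The guidance cue Sema5a had the widest difference but missed the threshold at 0.99 (adjusted p = 0.052), and the plexin gene Plxnb3, at 0.80, passed (adjusted p = 0.0359), as did Bcas1 and Sirt2, named after their values were seen, at 0.74 and 0.41. Of 13 other precursor genes 2 were higher over 9 arrays and 5 in the 6 brain arrays, none lower in either fit (median 0.25). Those called over 9 arrays were the proteoglycan gene Vcan at 0.63 (adjusted p = 0.0262) and the receptor phosphatase gene Ptprz1 at 0.62 (adjusted p = 0.00852).

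Among 10 other transcription factors of the lineage, 4 were higher in HC and 1 was lower over 9 arrays. In the 6 brain arrays 5 were higher and 1 lower. St18, a relative of Myt1, was higher by 2.21 ± 0.167 (adjusted p = 7.3e-05) and Zeb2 by 0.91 ± 0.123 (adjusted p = 0.00229). Myt1 and Nfia, at 0.80 and 0.71, and Sox5, at -0.77 (adjusted p = 0.00288), are named after their values were seen. Of 8 genes that hold back differentiation none passed in either direction (limma, median 0.00), and in the 6 brain arrays 1 was higher and 1 lower. These were the receptor gene Notch1 at 0.30 (adjusted p = 0.0119 in those arrays) and Hes1, a Notch target, at -0.68 (adjusted p = 0.0103).

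**Figure D5:**
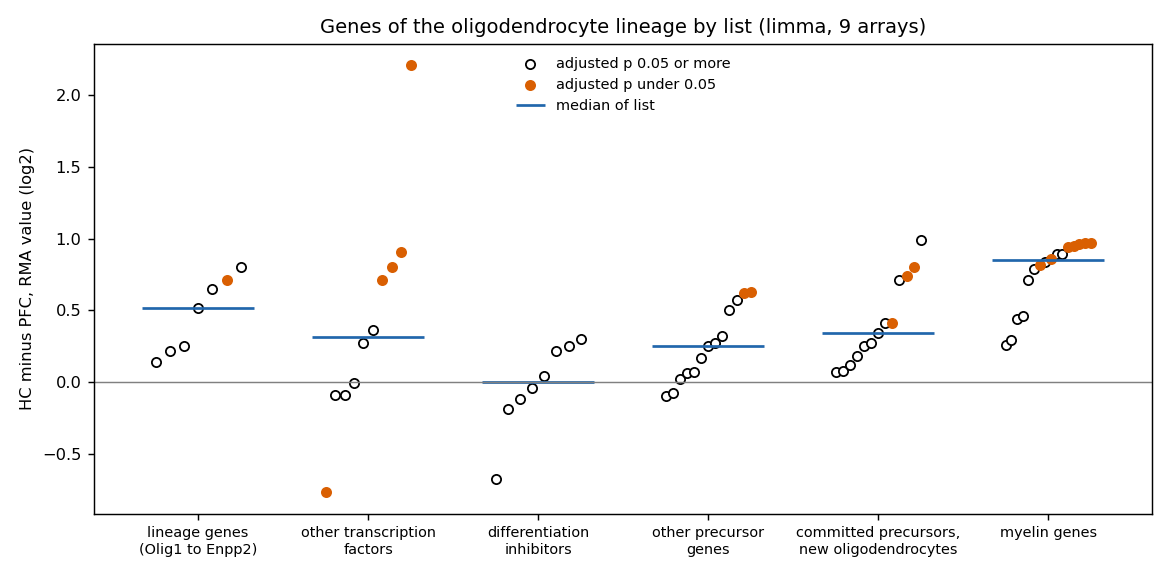
HC minus PFC in RMA value (log2) of each gene on 6 lists, sorted within a list. Filled points passed the test over 9 arrays, open points did not, and bars are list medians. Medians are 0.85 for myelin genes, 0.52 for the 7 lineage genes and 0.00 for differentiation inhibitors.

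The partners of these receptors and of autotaxin were also read. All 5 PDGF genes (4 ligands and the receptor Pdgfrb) were higher in HC and in PFC than in blood, Pdgfrb, which marks pericytes, by 2.01 and 1.89, and Pdgfc, below the chemosensory level in blood, by at least 1.40 and 1.84. Pdgfd, also below that level (5.53) in blood, was higher only as measured, by 0.40 and 0.42. With its blood mean raised to that level, the differences were -0.18 and -0.16. None of the 5 was called between HC and PFC (median -0.02), and in the 6 brain arrays Pdgfc was lower in HC (-0.44, adjusted p = 0.0362). Of 10 receptors, phosphatases and related proteins of lysophosphatidic acid, 4 were higher in HC and none lower, over 9 arrays and in the 6 brain arrays. The widest were Plppr1 at 1.48 (adjusted p = 0.000142 over 9 arrays) and Plppr4 at 0.94 (adjusted p = 0.00365), both phosphatase-related membrane proteins of neurons. Lpar4 (0.79) and Plpp1 (0.46), the other two, are named after their values were seen. Of 7 relatives and ligand genes of Gpr37 and Gpr17, 5 were lower than blood in each region (medians -0.93 and -1.02, or -0.83 and -0.86 with means raised to the chemosensory level) and 2, Psap and Gpr37l1, were higher. Cysltr1, among the 5, was below the chemosensory level in blood, HC and PFC alike, so no difference is read from it. P2ry1, a nucleotide receptor, was higher in HC than in PFC by 0.46 (adjusted p = 0.0206), and the other 6 were not called between the regions over 9 arrays. Psap, whose product gives rise to prosaposin peptides proposed as ligands of Gpr37, differed by -0.05 between the regions, and Gpr37l1, a close relative of Gpr37, by 0.27 (adjusted p = 0.576 over 9 arrays and 0.0288 in the 6 brain arrays).

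Markers of other cells, among them those that carry Cspg4 or Pdgfra, were as follows. Of 12 mural cell genes none was called between HC and PFC over 9 arrays, and their mean level ran from 6.77 to 6.91 in HC and from 6.83 to 6.87 in PFC. In the 6 brain arrays (limma) 1 was higher in HC, Notch3 at 0.42 (adjusted p = 0.0212), and 1 lower, Vtn at -0.41 (adjusted p = 0.00385). Of 9 fibroblast and leptomeningeal genes, 3 were lower in HC over 9 arrays and 6 in the 6 brain arrays, none higher in either fit. The widest were Ptgds at -1.30 (adjusted p = 0.00243 over 9 arrays) and Aldh1a2 at -1.18 (adjusted p = 0.00491). The mean level of the 9 was 6.60 to 6.68 in HC and 7.19 to 7.29 in PFC, opposite in direction to the 7 lineage genes. Dcn, which was not called, went the other way (0.27). The part of mural cells or fibroblasts in the differences of the 7 lineage genes was not tested. Of 10 astrocyte genes 1 was called higher in HC over 9 arrays, Gfap at 1.55 (adjusted p = 0.00095), and 5 in the 6 brain arrays, none lower in either fit. Their mean level was 10.11 to 10.17 in HC and 9.82 to 9.84 in PFC, the same direction as the 7 lineage genes, and the part of astrocyte content in the differences of those genes was not tested. Erythroid genes averaged 5.52 to 5.67 in HC, 5.78 to 5.99 in PFC and 11.47 to 11.77 in blood.

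For each gene, the gene with the nearest profile over the 9 arrays was found among 14499 named genes, by the root mean square distance after subtraction of each gene's own mean. Ugt8, which makes the galactolipids of myelin, was nearest to Enpp2 at a distance of 0.195. Porcn was nearest to Olig1 (0.157), Grik5, a glutamate receptor subunit, to Pdgfra (0.0927), Galnt16 to Gpr17 (0.0948) and Ncdn to Gpr37 (0.212). Dtwd1 was nearest to Sox10 (0.0844) and Zfp282 to Cspg4 (0.0608). These distances are descriptions, and the gap between blood and brain weighs heavily in them.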

How the data were processed

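RNA from blood, HC and PFC of 3 rats was measured on 9 Rat Gene ST arrays. The authors quantile normalized the intensities, summarized them per probe set by RMA and deposited values from 1.53 to 14.01, taken here as log2 because no base is named. The annotation used by the authors is not given in the sources used here. Of 29215 probe sets, 1 had no value. The detection p-values of the study were not used here. The array annotation gave 15310 probe sets a single symbol, of which 15279 matched a rat gene table (GRCr8).

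Differences were estimated by limma 3.58.1 (R 4.3.3) from 1 model of the 3 tissues, without block or filter, using Benjamini-Hochberg adjustment and an adjusted p under 0.05. With 3 arrays against 3, an exact permutation test cannot go below 0.1, so none is given, and the number of arrays limits the precision. Per the labels, a number marks 1 animal. Deviations from tissue means correlated at 0.137 to 0.287 between HC and PFC of the same rat and at -0.079 to 0.052 between blood and either. The alternatives covered blocks, filter, scaling, variance model, arrays fitted, thresholds and left-out arrays (statmod 1.5.0 for robust fits). No gene had another probe set, so that alternative was not run. The genes, the lists and the naming rule (all members, the 2 widest per list and comparison, and the nearest profiles) were chosen with earlier results of these data known. The procedure was tested on simulated data. Figures were drawn with matplotlib 3.10.9.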

Additional observations from a re-analysis of the deposited data

How the results depend on the processing

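Of the 7 genes, Olig1, Pdgfra, Gpr17, Gpr37 and Enpp2 stayed higher than blood in both regions under every alternative tried. Sox10 and Cspg4 did not keep a direction against blood, and a call of Cspg4 brought the count in PFC from 5 to 6 with the filter, median centring, quantile normalization repeated, 1 probe set per gene, and without rat 7 or its blood array. Scaled on housekeeping genes, 2 of the 7, namely these, were lower in each region, Sox10 by -0.962 in HC and -1.244 in PFC and Cspg4 by -0.824 and -0.999, and over all probe sets 3132 were higher and 23650 lower in HC, and 3067 and 23861 in PFC. Quantile normalization repeated gave -0.122 and -0.347 for Sox10. Sox10 in PFC minus blood also turned negative in some fits without 1 rat or array (-0.166, -0.108, -0.013, -0.027 and -0.016), within a range of -0.166 to 0.215.

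In HC minus PFC, the count of the 7 genes called higher was 1 over 9 arrays and 1 with the rat as a random block. It was 2 with the rat as a fixed block (replicate block), 3 with the filter at 6.2, 2 with housekeeping scaling, 0 with quantile normalization repeated (Enpp2, adjusted p = 0.0678), 4 with array weights, 5 in the 6 brain arrays, 3 with 1 probe set per gene, 0 at an adjusted p under 0.01, 0 for differences beyond 1, and 4 in the 6 brain arrays with the rat as a block. Without 1 rat or array it ran from 0 to 3. Over 9 arrays the block changed no call of the 7 genes other than that of Gpr37. Over all 29214 probe sets, 616 (2.11%) were higher and 680 (2.33%) lower in HC. With the rat as a fixed block 525 were higher and 591 lower, and as a random block 615 and 674. With the filter 761 (4.51%) and 786 (4.66%) of 16884 were called. Housekeeping scaling gave 634 and 563, and quantile normalization repeated gave 486 and 517. The counts were 2237 and 2243 with array weights, 1785 and 1859 in the 6 brain arrays, 1499 and 1493 with the block there, 325 and 363 at 0.01, 39 and 48 beyond 1, and 194 to 1041 and 220 to 1086 without 1 rat or array. Why the calls move was not tested, beyond the fewer features or arrays that some settings hold.

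Against blood, 8463 probe sets were higher and 13581 lower in HC, and 8372 and 13719 in PFC. With the filter, 6133 and 6197 were lower. With 1 probe set per gene 5476 were higher and 6125 lower in HC, and 5502 and 6138 in PFC. Beyond 1 there were 3582 and 2413 in HC, and 3647 and 2440 in PFC. With presence set at the chemosensory percentile, 5 of the 7 genes were present in blood instead of 1, and the share of all probe sets was not counted.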
